A study of Mus musculus with 2 samples.

Results

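Notch pathway genes were examined in cells sorted by SOX2-GFP brightness from the tongue of newborn mice. The group holds 35 genes listed by symbol for their role in the pathway, a list drawn up with earlier results of these data known: 4 Notch receptors, 5 canonical ligands, 2 non-canonical ligands, 3 fringe glycosyltransferases, 6 genes of the cleavage machinery, 4 genes of the nuclear complex, 2 Numb inhibitors and 9 Hes and Hey genes. Each of the 35 symbols matched 1 entry among the 21628 of the deposited table, and all 35 were above 0 in both libraries. The RNA came from lingual epithelium of P0 pups (postnatal day 0) that carry the Sox2GFP genotype, in which GFP follows SOX2. Cells of pooled pups were dissociated with enzymes, and about 100000 cells were collected for each of 2 populations, GFP-high and GFP-low, although GFP brightness varied without a break and the gates are cuts in it. Both populations carry the reporter, and dim cells of the mesenchyme could also fall in the GFP-low bin. *Sox2* itself had 112 FPKM in GFP-high against 59.0 in GFP-low cells. The comparison asks which genes accompany high SOX2, which at this age marks taste buds and the cells around them, while dim SOX2 marks basal keratinocytes away from taste buds.

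Notch signaling passes between neighboring cells. A ligand of the Delta or Jagged family on a cell binds a Notch receptor on its neighbor, ADAM proteases and then the gamma-secretase complex cut the receptor, and the freed intracellular domain joins RBPJ and a Mastermind protein in the nucleus to switch on genes of the Hes and Hey families. Fringe enzymes add sugars to the receptor and change which ligands it answers to, and Numb proteins lower receptor levels. In stratified epithelia the pathway is known for its part in the step from the basal layer to differentiation, and in sensory epithelia for sorting neighboring cells into different fates.

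Values are FPKM, fragment numbers normalised for transcript length and library size, so levels of different genes can be set side by side. Ratios between the populations also depend on how the libraries are scaled. Summed over all genes measured, FPKM was 1069239 in GFP-high against 999462 in GFP-low cells, and 2 other scalings were tried. There was 1 library per population, so no difference has a replicate check, no error can be attached to it and no test was run. A gene was called enriched in a population when it reached 5 FPKM there and stood at least 1.5-fold above the other library. Where the populations differ, more cells of a type and more RNA per cell cannot be told apart. The sample labels give about 75000000 reads per library, while the steps between low FPKM values pointed to about 27000000 for GFP-high and 35000000 reads for GFP-low cells. Markers of other tissues were unevenly spread between the libraries. Summed FPKM over 7 fibroblast markers was 505 in GFP-high against 2460 in GFP-low cells, over 6 Schwann lineage markers 67.3 and 255, over 8 mural cell markers 52.3 and 105, over 10 endothelial markers 21.8 and 12.5, and over 6 taste bud markers 457 and 99.8. Epithelial markers were abundant in both, with sums of 24257 and 30585 over 6 genes, but they were split in direction. *Krt5*, *Krt14*, *Krt15* and *Trp63* were higher in GFP-low cells, by ratios between 1.08 and 1.44, and were not called. *Epcam* (ratio 1.91, called) and *Cdh1* (ratio 1.23, not called) were higher in GFP-high cells. Markers of suprabasal keratinocytes, the differentiating layers, were uneven, with sums of 72986 and 32446. All 6 were higher in GFP-high cells and 4 were called, among them *Krt4* (ratio 6.11) and *Krt13* (ratio 3.13), and their part in the differences of Notch pathway genes was not tested.

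Most of the pathway was expressed in both populations at similar levels. Of the 35 genes, 24 were at 5 FPKM or more in both libraries, 1 (*Hey1*) only in GFP-high cells and 10 in neither. Of the 25 that reached 5 FPKM in either library, 17 (68.0%) differed by less than 1.3-fold, beside 68.6% of the 10768 genes of the table that reached it. *Dlk1* and *Hes6* were called enriched in GFP-high cells, 2 of 35 genes (5.71%), and by the same rule 5.90% of all 17299 genes measured were. *Jag2*, *Dlk2*, *Lfng* and *Heyl* were called enriched in GFP-low cells, 4 of 35 (11.4%) beside 5.54% of all genes. The median log2 difference over the 35 genes, with 1 added to each FPKM, was −0.07, and over all genes measured it was −0.02. Near the limit of 1.5-fold, *Notch3* lay just outside at 1.499-fold higher in GFP-high cells, and *Lfng* was the nearest inside at 1.59-fold higher in GFP-low cells. On the TPM scale, where each FPKM is divided by the total of its library, the same 6 genes were called. All ratios of GFP-high to GFP-low are then lower by 0.10 in log2 units, which moves the share of GFP-high genes among all genes called from 51.6% to 40.3%.

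**Figure D1:**
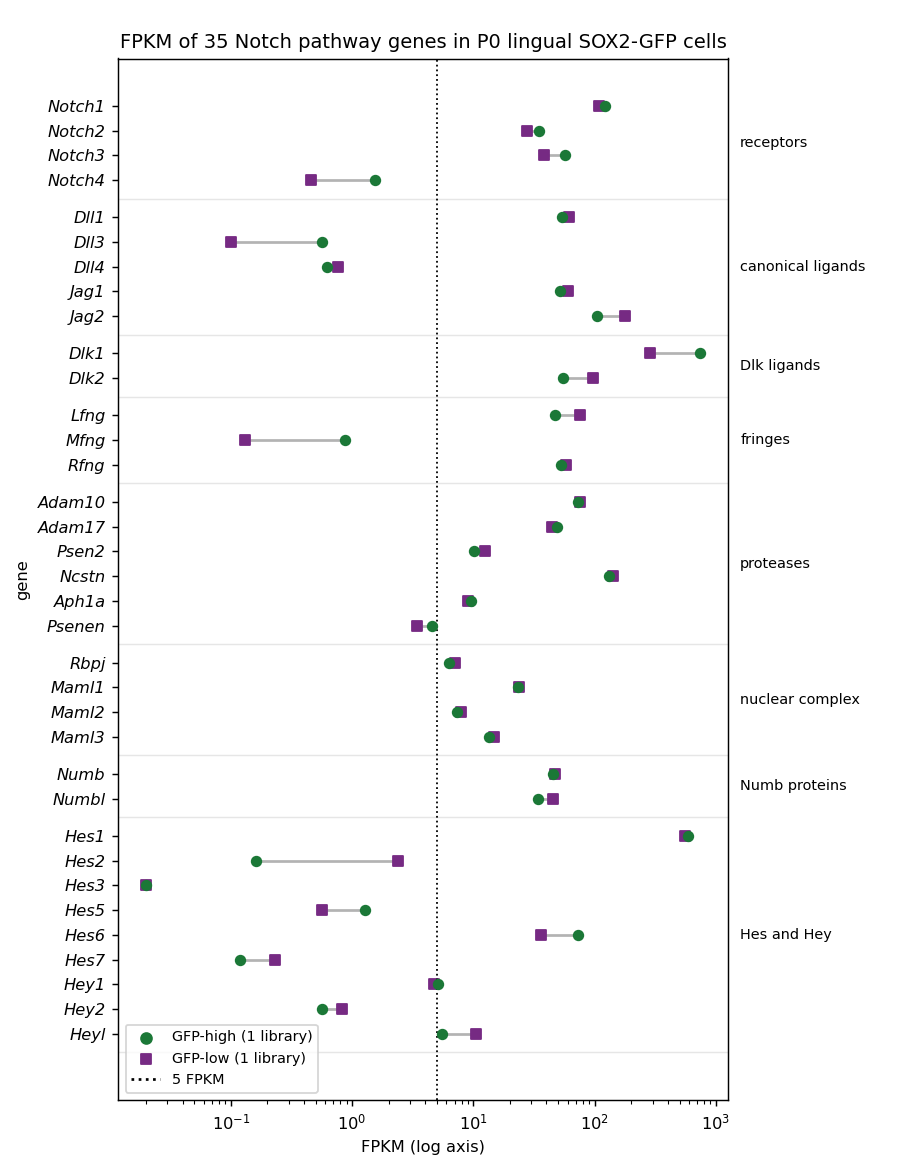
FPKM (log axis) of the 35 genes by role, with a green circle for the GFP-high library and a purple square for the GFP-low library; the dotted line marks 5 FPKM. *Dlk1* and *Hes1* lie farthest right, and the widest gaps, such as that of *Hes2* (0.16 and 2.41 FPKM), are among genes left of the line.

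All 4 receptor genes had higher FPKM in GFP-high cells, and none was called enriched. *Notch1* (ENSMUSG00000026923, chromosome 2, 26457903–26516663 of mm10), the receptor best known for keratinocyte differentiation, had the highest level, with 121 FPKM in GFP-high against 108 in GFP-low cells. That is 1.13-fold higher in GFP-high cells, and 91.3% of all genes measured had a lower FPKM there. *Notch2* had 34.96 FPKM in GFP-high against 27.9 in GFP-low cells, a ratio of 1.25. *Notch3* (ENSMUSG00000038146, chromosome 17, 32120820–32166852), a receptor also known from the smooth muscle of vessels, had 57.0 FPKM in GFP-high against 38.1 in GFP-low cells. Its ratio was 1.54 with the libraries scaled to the median ratio of expressed genes and 1.40 on the TPM scale, so its call depends on the scaling. *Notch3* was also called when ratios as deposited were rounded to 2 decimals. All 8 mural cell markers had their higher FPKM in GFP-low cells, though 5 of them were under 5 FPKM in both libraries. Their part in the *Notch3* value was not tested. *Notch4*, a receptor known from endothelium, was at 1.54 FPKM in GFP-high against 0.46 in GFP-low cells, a ratio of 3.35 below the minimum for a call, and of 1.74 with 1 added to each FPKM. Of the 10 endothelial markers, 8 also had higher FPKM in GFP-high cells and 2 had higher FPKM in GFP-low cells. None was at 0 in either library, but 9 were under 5 FPKM in both, and their part in the *Notch4* value was not tested. The receptors kept the same order in both populations, *Notch1* above *Notch3*, *Notch2* and *Notch4*. Their summed FPKM was 215 in GFP-high against 174 in GFP-low cells, of which *Notch1* made up 56.4% and 61.8% and *Notch3* 26.6% and 21.9%.

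Of the 5 canonical ligands 4 went the other way, *Dll3* being the exception, and *Jag2* accounted for most of the difference. *Jag2* (ENSMUSG00000002799, chromosome 12, 112907819–112929776), a Jagged ligand known from the basal layer of stratified epithelia, had 105 FPKM in GFP-high against 178 in GFP-low cells, 1.69-fold higher in GFP-low cells. *Jag1* had 51.7 FPKM in GFP-high against 60.0 in GFP-low cells, a ratio of 1.16 in the same direction. *Dll1*, the Delta ligand, was at 53.8 and 60.9 FPKM, a ratio of 1.13 toward GFP-low cells. *Dll1* and *Jag1* thus stood at nearly equal levels within each library, with *Dll1* at 1.04 times *Jag1* in GFP-high cells and 1.02 times in GFP-low cells. *Jag2* was 2.04 times *Jag1* in GFP-high cells and 2.97 times in GFP-low cells. Such ratios within a library do not depend on how the libraries are scaled. Of the summed ligand FPKM, 212 in GFP-high against 300 in GFP-low cells, *Jag2* made up 49.7% and 59.4%. A gene on the opposite strand, *A930024N18Rik*, covers 20.5% of the exon length of *Dll1*. Whether the authors' quantification used strand is not given in the sources used here, so part of the *Dll1* value may belong to that gene. The same holds for *Notch1*, where opposite-strand genes cover 10.4% of the exon length.

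The ligands *Dll3* and *Dll4* were scarce. *Dll4*, the Delta ligand of endothelium, had 0.62 FPKM in GFP-high against 0.77 in GFP-low cells, about 62 and 99 reads. Of the 10 endothelial markers, 8 had higher FPKM in GFP-high cells, but 9 were under 5 FPKM in both libraries. Their part in the *Dll4* value was not tested. *Dll3*, which is known to act inside the cell rather than at its surface, was at 0.56 and 0.10 FPKM, a ratio of 5.60. Rounding of the deposited values to 2 decimals alone leaves that ratio anywhere between 5.29 and 5.95, and the lower value corresponds to about 9 reads. The *Dll3* ratio was 3.30 with 0.1 added to each FPKM and 1.42 with 1 added.

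The non-canonical ligands *Dlk1* and *Dlk2*, Delta-like proteins without the domain that activates Notch receptors, were both well expressed and were called in opposite directions. *Dlk1* (ENSMUSG00000040856, chromosome 12, 109452823–109463336), an imprinted gene known from mesenchymal and other progenitors, had 742 FPKM in GFP-high against 288 in GFP-low cells. It was the most abundant of the 35 genes in GFP-high cells, where 99.2% of all genes measured had a lower FPKM, and its ratio of 2.58 was the largest among the called members. Fibroblast markers went the opposite way to *Dlk1*, all 7 being higher in GFP-low cells. Of 7 skeletal muscle markers, 4 went the same way as *Dlk1*, 2 went the opposite way and 1 was equal. Their summed FPKM was 11 in the GFP-high library against 12.1 in the other, and 6 were under 5 FPKM in both. The part of either marker set in the *Dlk1* value was not tested. *Dlk2* (ENSMUSG00000047428, chromosome 17, 46297421–46303271) had 54.4 FPKM in GFP-high against 96.1 in GFP-low cells, 1.77-fold higher in GFP-low cells. *Dlk1* therefore stood at 13.63 times *Dlk2* in GFP-high cells and at 3.0 times in GFP-low cells.

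**Figure D2:**
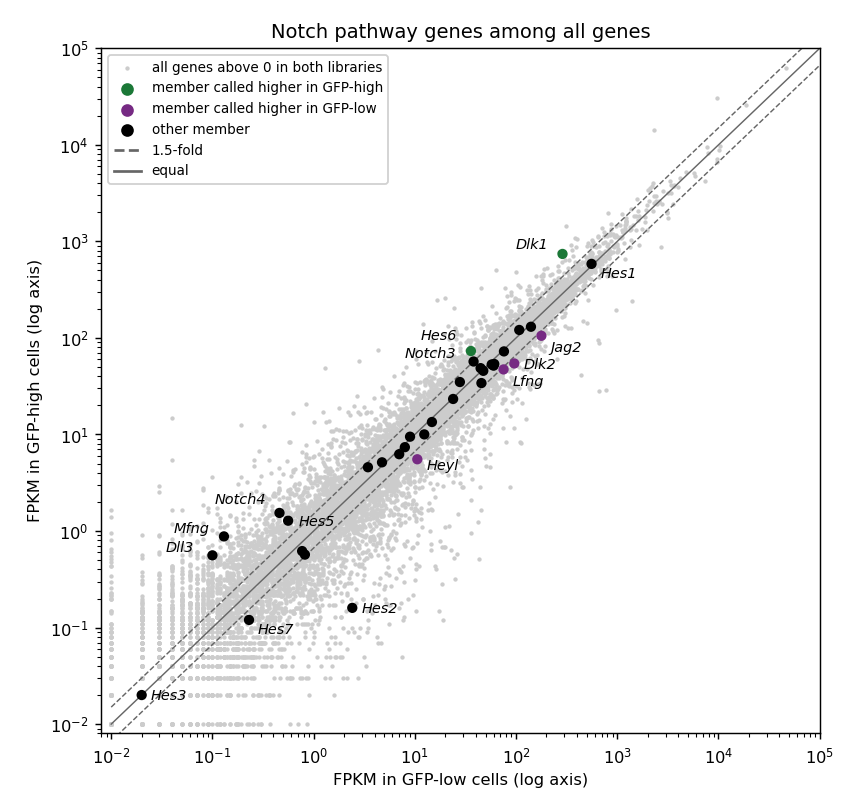
FPKM in GFP-high cells against FPKM in GFP-low cells (both log axes), with a grey point for each gene above 0 in both libraries and large points for the 35 Notch pathway genes. Green marks the 2 members called higher in GFP-high cells, *Dlk1* and *Hes6*, purple the 4 called higher in GFP-low cells, and the spread of grey points widens toward low FPKM.

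Of the fringe genes, *Lfng* was called enriched in GFP-low cells. *Lfng* (ENSMUSG00000029570, chromosome 5, 140607320–140615545), which is both a modifier of Notch and a known target of it, had 47.2 FPKM in GFP-high against 75.3 in GFP-low cells, 1.59-fold higher in GFP-low cells. *Rfng* had 53.2 FPKM in GFP-high against 57.5 in GFP-low cells, a ratio of 1.08. The order of these fringes differed between the libraries, since *Lfng* was at 0.89 times *Rfng* in GFP-high cells and at 1.31 times in GFP-low cells. *Mfng*, the remaining family member, had 0.88 FPKM in GFP-high against 0.13 in GFP-low cells. Its ratio of 6.77 rests on about 63 and 12 reads, and rounding leaves it between 6.48 and 7.08. With 0.1 and 1 added to each FPKM the *Mfng* ratio was 4.26 and 1.66. Summed FPKM over the 10 endothelial markers was also higher in GFP-high cells, 21.8 against 12.5. Of these markers 8 went that way and 2 the opposite way, and 9 were under 5 FPKM in both libraries. Their part in the *Mfng* value was not tested.

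Genes of the cleavage machinery were nearly even. *Adam10*, the main protease for ligand-activated receptors, had 72.6 FPKM in GFP-high against 76.0 in GFP-low cells. *Adam17* was at 48.7 and 44.7 FPKM. Neither differed by more than 1.09-fold. Among the gamma-secretase subunits, *Ncstn*, which recruits the substrate, stood far above the rest with 131 FPKM in GFP-high against 140 in GFP-low cells. *Psen2*, a catalytic subunit, was at 10.03 and 12.40 FPKM, a ratio of 1.24 toward GFP-low cells, so that *Ncstn* was 13.03 times *Psen2* in GFP-high cells and 11.33 times in GFP-low cells. *Aph1a* (9.49 and 8.97 FPKM) and *Psenen* (4.58 and 3.44 FPKM) are less certain, because 39.5% and 23.4% of the 50-nt windows of their transcripts also occur in transcripts of other genes. No gene of this group was called in either direction.

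No gene of the nuclear complex differed by more than 1.12-fold. *Rbpj*, the DNA-binding partner of the Notch intracellular domain, had 6.25 FPKM in GFP-high against 7.01 in GFP-low cells, and 10.6% of its windows occur in other transcripts, among them a processed copy. The Mastermind coactivators kept 1 order, with *Maml1* at 23.3 and 23.9 FPKM, *Maml3* at 13.5 and 14.8, and *Maml2* at 7.39 and 7.97. All 4 genes were higher in GFP-low cells as deposited, by ratios between 1.02 and 1.12, and *Maml1* changed direction with the libraries scaled to the median ratio. Both Numb genes also leaned to GFP-low cells. *Numb* had 45.7 FPKM in GFP-high against 47.5 in GFP-low cells, a ratio of 1.04, and *Numbl* had 34.1 and 45.5, a ratio of 1.33. *Numb* was thus 1.34 times *Numbl* in GFP-high cells and 1.04 times in GFP-low cells.

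**Figure D3:**
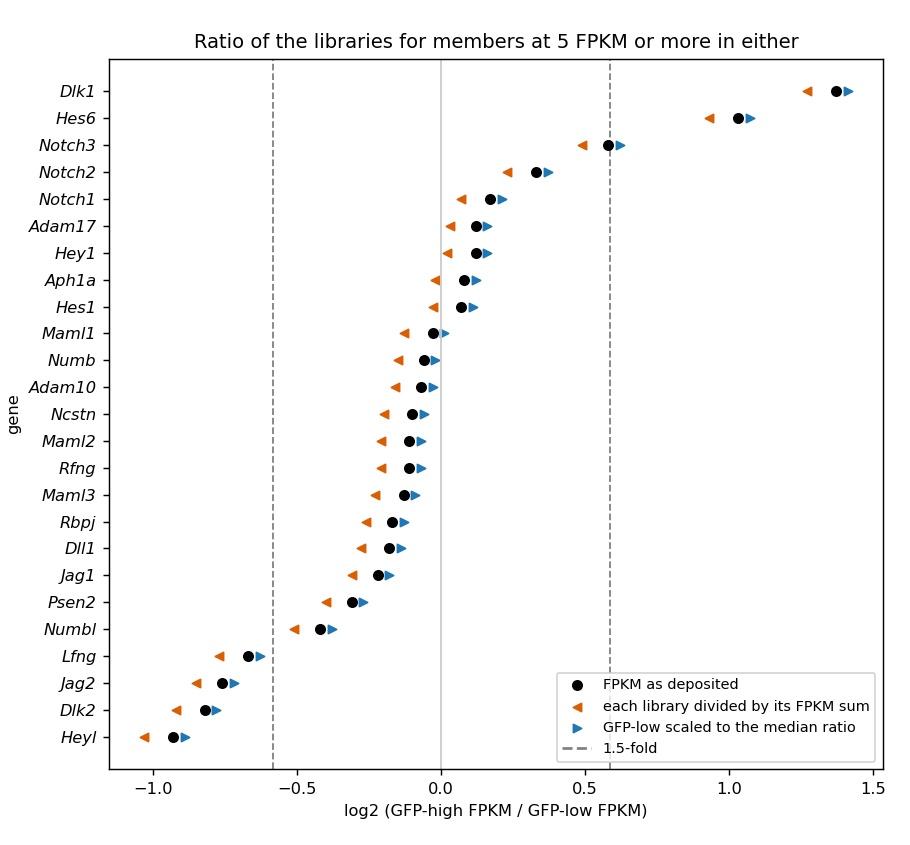
Log2 ratio of GFP-high to GFP-low FPKM for the 25 members at 5 FPKM or more in either library, as deposited (black) and on 2 other scales of the libraries (orange and blue), with dashed lines at 1.5-fold. *Dlk1* and *Hes6* lie beyond the right line and *Lfng*, *Jag2*, *Dlk2* and *Heyl* beyond the left line on all 3 scales, while *Notch3* crosses the right line on 1 of them.

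*Hes1* was high in both populations and did not differ between them by the rule. *Hes1* (ENSMUSG00000022528, chromosome 16, 30064384–30067796), a transcriptional repressor and the classical target of Notch, had 585 FPKM in GFP-high against 557 in GFP-low cells. In GFP-high cells 98.8% of genes measured had a lower FPKM, and in GFP-low cells 98.9%. Its ratio was 1.05 as deposited and 0.98 on the TPM scale, so no direction can be given. *Hes6* (ENSMUSG00000067071, chromosome 1, 91411483–91414038), a relative known to oppose *Hes1* and to promote neuronal differentiation, had 73.2 FPKM in GFP-high against 35.8 in GFP-low cells, a ratio of 2.04. All 6 taste bud markers were likewise higher in GFP-high cells, and their part in the *Hes6* value was not tested. *Hes1* was 7.99 times *Hes6* in GFP-high cells and 15.55 times in GFP-low cells. Within the summed FPKM of the 9 Hes and Hey genes, *Hes6* made up 10.9% in GFP-high against 5.85% in GFP-low cells, and *Hes1* 87.2% and 91%.

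The Hey genes were much lower than *Hes1*. *Heyl* (ENSMUSG00000032744, chromosome 4, 123233556–123249875), a Notch target known from vascular smooth muscle, had 5.54 FPKM in GFP-high against 10.6 in GFP-low cells, 1.91-fold higher in GFP-low cells. Mural cell markers (8 of 8), fibroblast markers (7 of 7) and Schwann lineage markers (6 of 6) had higher FPKM in GFP-low cells too, and their part in the *Heyl* value was not tested. *Hey1* was at 5.15 FPKM in GFP-high against 4.74 in GFP-low cells, a ratio of 1.09. *Hey1* was therefore at 0.93 times *Heyl* in GFP-high cells and 0.45 times in GFP-low cells. *Hey2* stayed under 1 FPKM, with 0.57 and 0.82.

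The other Hes genes were at low FPKM. *Hes2* had 0.16 FPKM in GFP-high against 2.41 in GFP-low cells, 15.06-fold higher in GFP-low cells and the largest ratio of the 35 genes. It rests on about 11 and 207 reads, and rounding leaves the ratio between 14.6 and 15.6. With 0.1 added to each FPKM the ratio was 9.65, and with 1 added it was 2.94. *Hes5*, a Notch target of neural and glial progenitors, was at 1.28 FPKM in GFP-high against 0.56 in GFP-low cells, about 41 and 23 reads, but 31.8% of its exon length overlaps *Gm20421* on the opposite strand. *Hes7*, known from the segmentation clock of the embryo, had 0.12 and 0.23 FPKM, or about 5 and 13 reads. *Hes3* was at 0.02 FPKM in each, about 1 read, so no ratio is given.

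**Figure D4:**
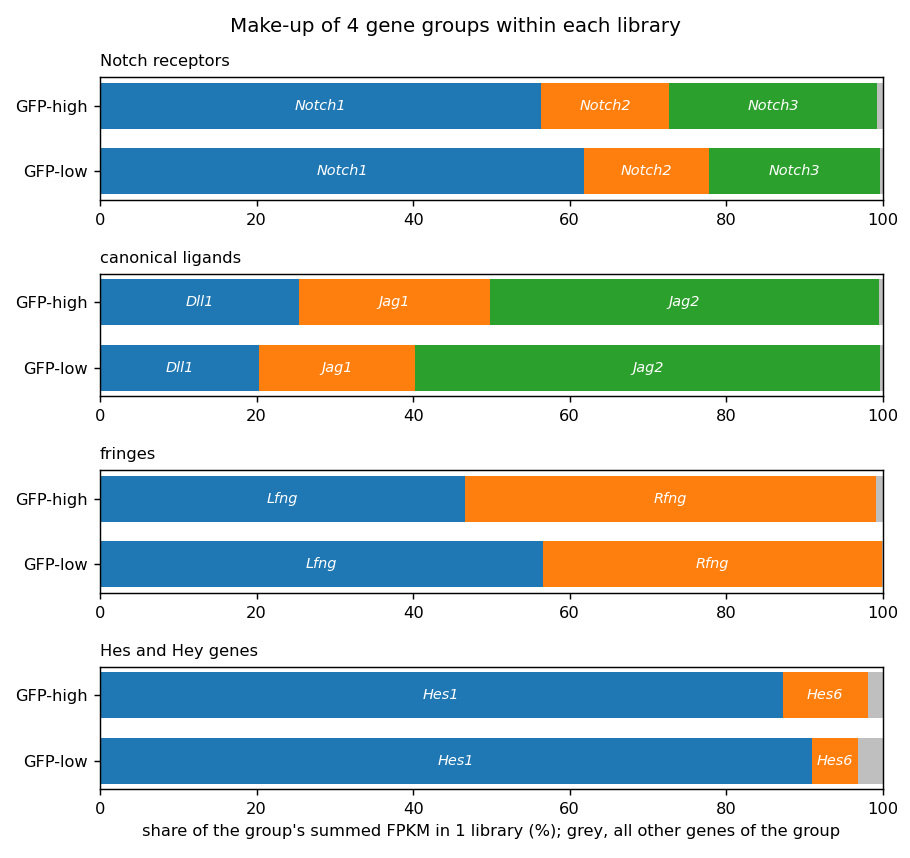
Share of each gene in the summed FPKM of its group within 1 library (percent), for the Notch receptors, canonical ligands, fringes and Hes and Hey genes, GFP-high above GFP-low in each panel; grey stands for all other genes of the group. *Jag2* takes 49.7% of the ligands in GFP-high against 59.4% in GFP-low cells, *Lfng* 46.6% and 56.6% of the fringes, and *Hes6* 10.9% and 5.85% of the Hes and Hey genes.

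Promoter windows were read for the letters that RBPJ binds, TGGGAA, which lie within the longer form GTGGGAA. RefSeq windows on GRCm38.p6, the assembly of mm10, run from 250 bases before to 50 bases after a transcript start, and 38 windows were found for 29 of the 35 genes (not *Hes1*, *Hes2*, *Hes3*, *Hey1*, *Heyl* and *Mfng*). On either strand TGGGAA occurred in 11 of these 38 windows (28.9%) and in 25.6% of all 32851 windows, and GTGGGAA in 6 (15.8%) and in 6.38%. Of the 6 called genes, 5 have a window, and TGGGAA was found in that of *Lfng* alone. Among the Hes and Hey genes it was found in the windows of *Hes5*, *Hes7* and *Hey2*, which were all under 5 FPKM, and in neither window of the called gene *Hes6*. The window of *Lfng* is shown as the called gene with a match, those of *Hes5* and *Hey2* as the Hes and Hey genes with 2 matches each, and 1 window of *Hes6* for contrast. A window of *Rbpj* also holds 2 matches, at bases 102 and 186, and is not printed. Capitals mark matches to TGGGAA or GTGGGAA, or to their reverse complements, in the strand of the gene.
Lfng, chr5:140607091-140607390, plus strand: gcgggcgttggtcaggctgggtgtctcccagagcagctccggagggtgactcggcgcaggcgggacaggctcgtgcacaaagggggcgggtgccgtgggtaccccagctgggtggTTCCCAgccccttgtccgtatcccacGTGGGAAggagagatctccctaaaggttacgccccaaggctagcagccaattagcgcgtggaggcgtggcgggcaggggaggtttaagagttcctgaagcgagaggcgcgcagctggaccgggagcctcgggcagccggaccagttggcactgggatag
Hes5, chr4:154960673-154960972, plus strand: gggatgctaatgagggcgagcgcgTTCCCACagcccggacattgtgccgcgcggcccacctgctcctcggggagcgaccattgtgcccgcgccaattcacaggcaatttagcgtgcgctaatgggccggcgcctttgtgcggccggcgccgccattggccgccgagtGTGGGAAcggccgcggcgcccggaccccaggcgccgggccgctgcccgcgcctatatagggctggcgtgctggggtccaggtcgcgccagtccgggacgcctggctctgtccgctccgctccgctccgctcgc
Hey2, chr10:30842734-30843033, minus strand: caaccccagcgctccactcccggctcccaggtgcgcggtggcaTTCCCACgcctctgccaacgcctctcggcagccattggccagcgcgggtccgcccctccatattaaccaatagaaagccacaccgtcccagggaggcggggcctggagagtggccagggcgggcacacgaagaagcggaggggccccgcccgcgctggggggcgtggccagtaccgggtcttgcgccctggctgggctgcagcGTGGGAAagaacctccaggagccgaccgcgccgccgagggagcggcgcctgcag
Hes6, chr1:91413173-91413472, minus strand: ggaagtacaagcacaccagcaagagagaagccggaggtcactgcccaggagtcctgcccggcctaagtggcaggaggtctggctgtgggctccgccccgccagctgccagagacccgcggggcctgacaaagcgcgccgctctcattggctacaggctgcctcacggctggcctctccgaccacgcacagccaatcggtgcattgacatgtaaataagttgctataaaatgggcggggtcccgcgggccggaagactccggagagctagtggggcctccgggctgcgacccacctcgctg
In *Lfng* the matches start at bases 116 and 143 of the window, and the second lies in a GTGGGAA that shares 3 bases with an E-box (CACGTG), a motif found in 7.15% of all windows. The matches start at bases 25 and 169 in *Hes5* and at bases 44 and 248 in *Hey2*, in each gene 1 on either strand and both in the longer form. The *Hes6* window shown holds the N-box letters CACNAG, which Hes repressors bind, at bases 14 and 266, and 42.5% of all windows hold that motif on either strand. CACNAG and CACGTG cannot be the same letters, since they differ in the fifth base. A match is a description of letters and not a binding site.

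Other genes of the pathway, from a list of 52 that are not among the 35, were called about as often as genes at large. Of 51 measured, 3 (5.88%) were called in GFP-high cells beside 5.90% of all genes, and 4 (7.84%) in GFP-low cells beside 5.54%. Toward GFP-high cells these were *Bhlhe40*, a repressor related to the Hes family (126 and 45.3 FPKM, ratio 2.79), *Tle4*, a corepressor of the Groucho family (35.4 and 19.5 FPKM, ratio 1.81), and *Kat2b*, a histone acetyltransferase (32.7 and 20.5 FPKM, ratio 1.59). *Kat2b* fell to 1.49 on the TPM scale and was then not called. Toward GFP-low cells they were *Dtx3*, a ubiquitin ligase of the Deltex family (128 and 346 FPKM, ratio 2.70), *Tle2*, another Groucho corepressor (25.98 and 54.84 FPKM, ratio 2.11), *Ascl2*, a bHLH activator (5.14 and 11.6 FPKM, ratio 2.26), and *Poglut1*, which glucosylates Notch receptors (19.8 and 31.4 FPKM, ratio 1.59). *Nrarp*, a Notch target that limits the signal, was at 93.4 FPKM in GFP-high against 63.8 in GFP-low cells, a ratio of 1.46 as deposited, and it just meets the limit of 1.5-fold with the libraries scaled to the median ratio. *Nrarp* is named here after its values were seen.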

How the data were processed

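SOX2-GFP cells of P0 lingual epithelium were profiled by RNAseq, 1 library per population. Per the submitters' processing notes and the study's methods, the authors trimmed single-end reads with Trimmomatic 0.36, mapped them to mm10 with GSNAP and obtained FPKM with Cufflinks 2.2.1, and they deposited FPKM per gene rounded to 2 decimals. The columns are named means, but the labels give 1 library each. A deposited column of the authors' fold changes was not used. The annotation release and whether strand was used are not given in the sources used here.

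Of 21628 entries, 17 without a number in either library and 4312 at 0 in both were left out, which leaves 17299. The members were chosen by symbol, and the members and lists were chosen with earlier results of these data known. All 35 members are reported. Those called, or at 1.3-fold or more with 5 FPKM in either library, are described individually with genes of each role, and the other pathway genes are named where called. With 1 library per population no test was possible. The calling code (Python 3.11.15, pandas 2.3.3) was run on simulated data in which chosen genes were changed 2-fold without added noise. That run checks the code only and gives no error rate for the calls.

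Depth was sought as the value at which low FPKM times exon length, less 200 nt, lay nearest to whole reads, for genes with 1 transcript and 400 to 2500 nt of exons. Of the values tested, 54.0% of 261 in GFP-high and 50.9% of 222 in GFP-low lay within 0.15 of a whole read, against medians of 26.2% and 27.3% over all depths tried. Since many values were not whole, no counts were recovered, and reads per gene are approximate. Gene positions, exon lengths and transcripts are those of GENCODE M21, which holds 21442 of the 21591 identifiers. Alternatives were other FPKM minimums, 2-fold, pseudocounts, 2 scalings of the libraries and, added after the data were seen, ratios rounded to 2 decimals and protein-coding entries.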

Additional observations from a re-analysis of the deposited data

How the results depend on the processing

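The 2 members called in GFP-high cells were called under every alternative run, and the 4 called in GFP-low cells under every one but 2-fold, which left 2 in GFP-high against 0 in GFP-low cells, and 449 and 467 of all genes. With a minimum of 1 FPKM, 4 members were called in GFP-high cells (*Notch4* and *Hes5* added) and 5 in GFP-low cells (*Hes2* added), and 1541 and 1564 of all genes. With no minimum the counts were 6 and 6 members (also *Dll3*, *Mfng* and *Hes7*) and 2542 and 2486 of all genes, which is the low range where few reads stand behind a value. Requiring 5 FPKM in both libraries left 634 of all genes in GFP-low cells instead of 959 and changed no member. *Notch3* was the only member that entered under the scaling to the median ratio (0.973) and under rounding of ratios to 2 decimals, which made 3 in GFP-high cells each time. The median log2 difference over the members was −0.15 on the TPM scale (each FPKM divided by the total of its library), −0.03 with the median scaling and between −0.10 and −0.07 under the other alternatives. The TPM scale turned the direction of 2 uncalled members, *Hes1* and *Aph1a*, and the median scaling that of 1, *Maml1*. Adding 0.1 or 1 to each FPKM changed no call among the members but shrank the ratios of those near 0, *Hes2* from 15.06 to 9.65 and 2.94, *Mfng* from 6.77 to 4.26 and 1.66, and *Hes5* from 2.29 to 2.09 and 1.46. No paired analysis was possible because each population has 1 library, and for the same reason no replicate could be left out.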

Other observations

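Of the bHLH activators on the list of other pathway genes, those named here were at low FPKM in both populations. *Ascl3* had 2.33 FPKM in GFP-high against 1.88 in GFP-low cells. *Atoh1* (0.08 and 0.07 FPKM) and *Neurod1* (0.01 in each) were near 0, and *Neurog1* was listed at 0 in both. *Dner*, a neuronal Notch ligand, had 0.91 FPKM in GFP-high against 0.03 in GFP-low cells, and *Cntn6*, another proposed ligand, 0.03 and 2.16. *Neurl3*, a ubiquitin ligase gene of the Neuralized family, was at 2.01 and 0.17 FPKM. All of these lie under the minimum for a call. They were named after their values were seen.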
